A study of Sus scrofa with 8 samples.

Results

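The genes described here encode the machinery that moves newly made proteins into the endoplasmic reticulum (ER) and attaches N-linked sugars to them. The list names 37 genes, chosen by function and with earlier results of these data known. All 37 were matched to a pig identifier in a table of 25880 pig genes. Of these, 36 were matched by symbol and SEC61G by position, and all 37 passed the filter on low counts, among 17175 genes tested. The libraries came from olfactory epithelium of newborn pigs, 4 of them labelled wild-type (piglets 5, 9, 12 and 23) and 4 labelled CFTR knockout (piglets 6, 18, 20 and 21). CFTR is the anion channel whose loss causes cystic fibrosis, and the series asks how its loss affects the olfactory system. The labels give no strain, litter or sex, and the sources used here do not say how the knockout was made.

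A protein bound for secretion or for a membrane carries a signal sequence, which the signal recognition particle (SRP) binds as it leaves the ribosome. The SRP receptor hands the ribosome to the Sec61 channel, where signal peptidase removes the signal and the oligosaccharyltransferase moves a preassembled glycan from the lipid dolichol to asparagines of the chain. Glucosidases then trim this glycan and UGGT1 adds glucose back to chains that have not folded, which returns them to the lectin chaperones calnexin and calreticulin. Odorant receptors of olfactory neurons, the proteins secreted by nasal glands and CFTR itself all enter the ER, and CFTR carries N-linked glycans.

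Library totals ranged from 30836904 to 43253395 counts, and a member had between 755 and 16340 reads in a library. CFTR stood at 40.4 ± 10.9 CPM over the wild-type and 6.84 ± 1.36 CPM over the knockout libraries (SD, n = 4 each), with an edgeR adjusted p of 0.0121, and every knockout library lay below every wild-type library. Without knockout piglet 6 that adjusted p was 0.122, and without knockout piglet 20 it was 0.0544. CPM is the count relative to the library's total, scaled by the TMM method. The 10 matched markers of mature olfactory neurons summed to at least 4753 CPM in every library, while OMP was not matched and not analysed here. Bone and connective tissue markers (9) summed to 45450 CPM in knockout piglet 18 and 1597 to 5669 CPM elsewhere. Y-linked reads (EIF1AY, KDM5D) occurred in 2 wild-type and 0 knockout libraries. In bulk tissue, fewer cells of a type and less RNA per cell cannot be told apart.

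No gene of ER translocation and N-glycosylation passed the adjusted test between the genotypes, and most had small negative differences in the knockout. Group medians were lowest in the Sec61 channel with its partners SEC62 and SEC63 (-0.26, log2) and in the oligosaccharyltransferase (-0.21). Log2 fold changes (knockout over wild-type) were below 0 in 31 of 37 members, against 48.4% of all genes tested and 46.9% of the 7774 genes at least as abundant as the least abundant member. Their median was -0.10, against 0.0098 for all genes tested. No member passed an edgeR adjusted p of 0.05, a threshold that 0.00582% of all genes passed, and the smallest adjusted p among the members was 0.349. At an unadjusted p under 0.05, 12 members (32.4%) were lower, against 5.8% of all genes tested, and 1 member, SRP72, was higher, against 5.4%. Among those 7774 genes these shares were 6.44% lower and 6.62% higher. As the members were chosen with earlier results of these data known, the shares describe the list and do not test it. The groups did not overlap in 3 members, MOGS, DAD1 and SSR1, all lower in the knockout, against 3.36% of all genes tested and 3.15% of those 7774. No member lay higher in every knockout library, against 2.45% and 3.05%. DESeq2 called 0 members, against 0.786% of all genes called lower and 0.489% called higher. The summed level of immediate early and heat shock genes was 3924 to 5527 CPM in wild-type and 3156 to 3441 CPM in knockout piglets. Most of that gap lay in HSPA8, and without it the sums overlapped, at 2514 to 3196 CPM and 2273 to 2560 CPM. Their part in this result was not tested.

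**Figure D1:**
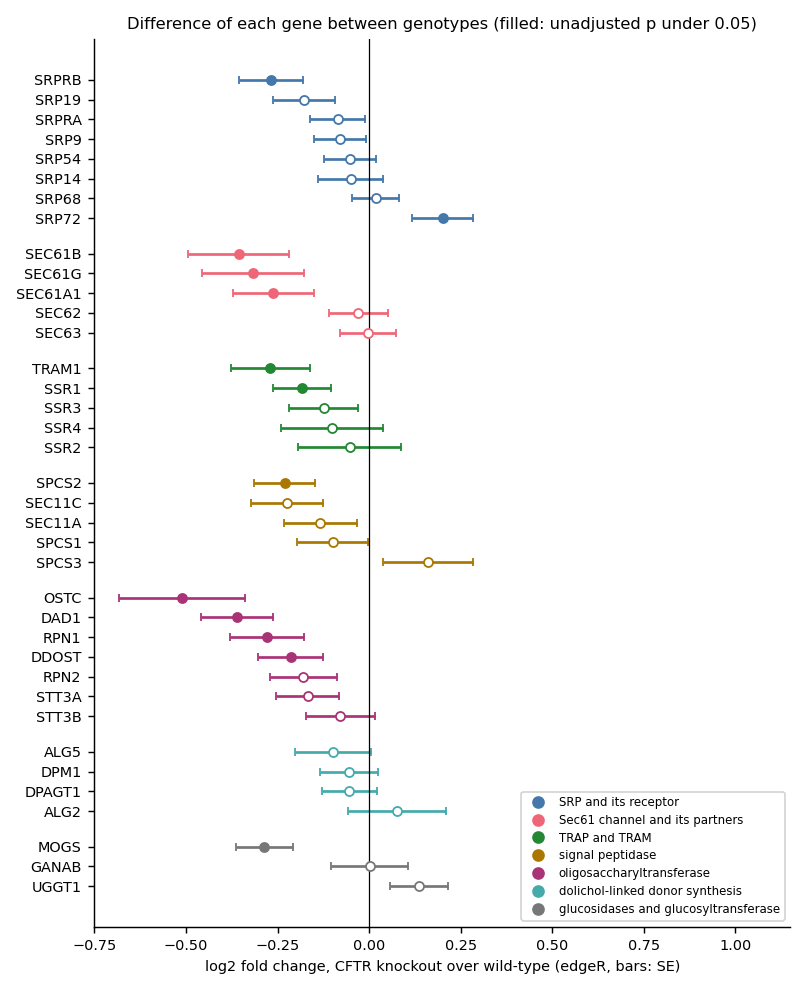
Log2 fold change, CFTR knockout over wild-type, of each of the 37 genes (x axis, bars are SE from edgeR), ordered within functional groups by colour. Filled circles mark an unadjusted p under 0.05; 31 of the 37 estimates lie below 0 and OSTC lies lowest at -0.51.

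The count of 12 depended on single libraries. It was 4 without knockout piglet 20 (10.8% of members, against 4.58% of all genes tested), 5 without knockout piglet 21 (13.5% against 4.33%) and 5 without wild-type piglet 23 (13.5% against 4.16%). Without wild-type piglet 9 it was 6 (16.2% against 3.36%) and without wild-type piglet 5 it was 7 (18.9% against 7.06%), while without wild-type piglet 12 it was 16 (43.2% against 8.02%). Without wild-type piglet 5 and knockout piglet 18 together the count was 11 (29.7% against 7.73%) and the median -0.15. The median log2 fold change of the members was -0.19 without knockout piglet 18 or wild-type piglet 12, and 27 members stayed below 0 in every alternative fitted. With the presence of Y-linked reads as a covariate, 12 members were lower (32.4% against 5.02%) and the median was -0.17.

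**Figure D2:**
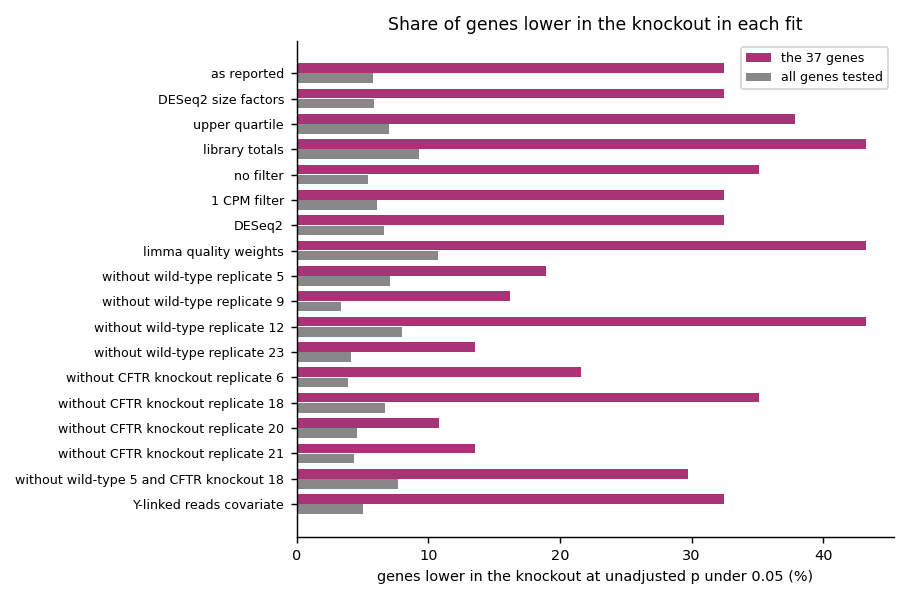
Share of the 37 genes (purple) and of all genes tested (grey) that were lower in the knockout at an unadjusted p under 0.05 (x axis, percent) in each fit (y axis). The share of the 37 genes runs from 10.8% without knockout replicate 20 to 43.2% and lies above that of all genes in each of the fits shown.

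Most members were high or low in the same libraries. Wild-type piglet 12 was the lowest wild-type library in 28 of 37 members, and knockout piglet 18 was the highest knockout library in 23. Knockout piglet 20 was the lowest of all 8 libraries in 20 members. Summed over the list, the level was 5080, 5033, 4558 and 5063 CPM in the wild-type libraries and 4531, 4834, 4245 and 4531 CPM in the knockout libraries, in the order of piglets 5, 9, 12 and 23 and of 6, 18, 20 and 21 that is used throughout. The wild-type sum of piglet 12 thus fell within the knockout range, and the sum of knockout piglet 18 lay between it and the other wild-type libraries. The median deviation from the wild-type mean was -0.28 (log2) in knockout piglet 20, the lowest library, and -0.08 in knockout piglet 18.

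**Figure D3:**
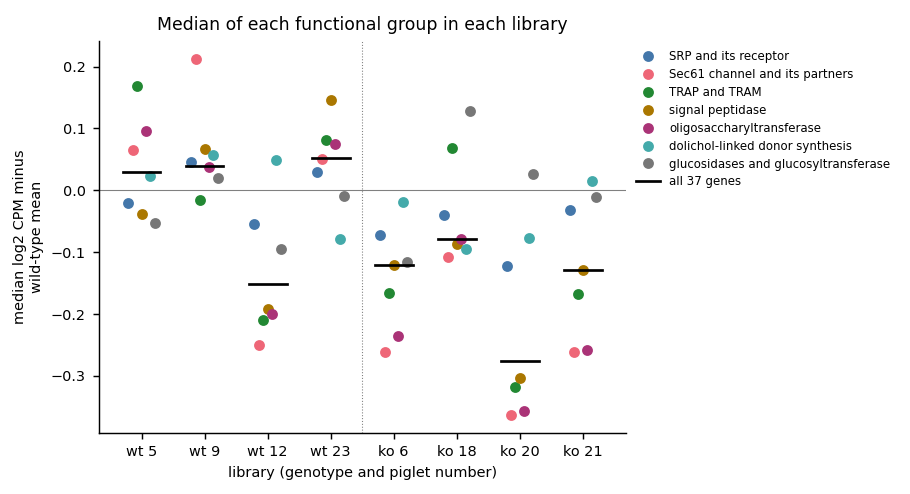
Median log2 CPM of each functional group minus its wild-type mean (y axis) in each library (x axis), with a black line for the median of all 37 genes. Wild-type piglet 12 lies at -0.15, among the knockout libraries, and knockout piglet 20 is lowest at -0.28.

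As a class, these genes were abundant and even between animals. Their mean level was 25.8 to 335 CPM, with a median of 94.4 CPM against 20.8 CPM for all genes tested. The median coefficient of variation between wild-type piglets was 9.02% for the members, 16.1% for all genes tested and 10.9% for the 7774 genes at least as abundant as the least abundant member. The list was spread over 15 chromosomes, with 7 members on chromosome 13 and 5 each on chromosomes 1 and 9. Coordinates are those of the deposited table, for which the sources used here name no genome build. SEC61A1 and RPN1 lay 319.7 kb apart on chromosome 13, and SEC61B and ALG2 lay on opposite strands 341 bases apart on chromosome 1.

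The SRP is a ribonucleoprotein whose protein subunits bind the signal sequence (SRP54), hold translation (SRP9 and SRP14) and scaffold the particle (SRP19, SRP68 and SRP72). Its receptor has a cytosolic GTPase, SRPRA, held at the ER membrane by SRPRB. Of these 8 genes, 6 had negative log2 fold changes, with a median of -0.07, 1 was lower and 1 higher at an unadjusted p under 0.05. SRPRB (chromosome 13, 74976025 to 75010213, plus strand) was 89.2, 93.9, 80.2 and 96.1 CPM in the wild-type libraries and 74.7, 81.8, 66.2 and 75.8 CPM in the knockout libraries. Knockout piglets 6, 20 and 21 lay below every wild-type library and piglet 18 did not. Its log2 fold change was -0.27 ± 0.09 (SE, edgeR adjusted p = 0.396), the lowest of the group. SRP72 (chromosome 8, 55729247 to 55760635, plus strand) was 63.9, 60.4, 69.4 and 57.4 CPM in the wild-type libraries and 74.4, 68.4, 77.6 and 68.2 CPM in the knockout libraries. Here knockout piglets 6 and 20 lay above every wild-type library and wild-type piglet 12 above the other knockout piglets, at 0.20 ± 0.08 on the log2 scale (SE, edgeR adjusted p = 0.425), the highest among all members. SRP68, its partner in the particle, was 81.8, 85.9, 83.9 and 86.3 CPM in the wild-type libraries and 85.8, 80.8, 83.4 and 91.9 CPM in the knockout libraries, with a log2 fold change of 0.02 ± 0.07 whose sign changed under other scalings. Within a library the SRP68 to SRP72 ratio of levels per length was 1.04 ± 0.103 in wild-type and 0.912 ± 0.0883 in knockout piglets (SD, n = 4 each; two-sided exact permutation p = 0.143, adjusted over 5 pairs 0.714).

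SRP9 and SRP14 form the dimer that pauses translation. SRP9 was 27.9, 28.99, 27.8 and 29.5 CPM in the wild-type libraries and 26.7, 26.6, 26.6 and 27.96 CPM in the knockout libraries. SRP14 was 111, 124, 98.1 and 116 CPM in the wild-type libraries and 108, 117, 99.0 and 109 CPM in the knockout libraries. The groups overlapped in both genes, with log2 fold changes of -0.08 ± 0.07 and -0.05 ± 0.09. Their ratio per length was 0.380 ± 0.0297 in wild-type and 0.372 ± 0.0259 in knockout piglets (SD, n = 4 each; exact permutation p = 0.714). Of SRP14's exon bases, 78.8% were shared with EIF2AK4 on the opposite strand, so its reads are uncertain where strand was not used in counting. SRP19 and SRP54 had log2 fold changes of -0.18 ± 0.08 and -0.05 ± 0.07, and SRPRA of -0.09 ± 0.08. Per length of merged exons, the highest wild-type level in the group was that of SRPRA at 45.9 ± 2.25 RPKM and the lowest that of SRP9 at 11.9 ± 0.346 RPKM (SD, n = 4 each).

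The Sec61 channel consists of the pore subunit SEC61A1 and the small tail-anchored subunits SEC61B and SEC61G, and all of them were lower in the knockout at an unadjusted p under 0.05. SEC61A1 (chromosome 13, 72254462 to 72270336, minus strand) was 266, 311, 226 and 278 CPM in the wild-type libraries and 224, 249, 205 and 224 CPM in the knockout libraries. SEC61B (chromosome 1, 240985158 to 240993455, plus strand) was 105, 113, 74.3 and 104 CPM in the wild-type libraries and 80.8, 87.2, 65.7 and 75.8 CPM in the knockout libraries. SEC61G, named by position (chromosome 9, 139128296 to 139135405, minus strand), was 62.2, 88.3, 56.4 and 69.9 CPM in the wild-type libraries and 51.2, 63.3, 53.04 and 54.7 CPM in the knockout libraries. In all of them wild-type piglet 12 was the lowest wild-type library and knockout piglet 18 the highest knockout library, and the groups overlapped. Log2 fold changes were -0.26 ± 0.11 for SEC61A1, -0.36 ± 0.14 for SEC61B and -0.32 ± 0.14 for SEC61G (SE, edgeR adjusted p = 0.431, 0.418 and 0.446). ALG2, the divergent neighbour of SEC61B, had a log2 fold change of 0.08 ± 0.13.

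SEC62 and SEC63 are membrane proteins that help the channel open, and SEC63 recruits the lumenal chaperone BiP to it. SEC62 was 184, 168, 164 and 191 CPM in the wild-type libraries and 169.7, 188, 164 and 170.4 CPM in the knockout libraries. SEC63 was 209.8, 183, 179 and 184 CPM in the wild-type libraries and 197, 193, 186 and 179 CPM in the knockout libraries. Neither differed between the groups beyond their spread, with log2 fold changes of -0.03 ± 0.08 and -0.0027 ± 0.0766, and both signs turned without single libraries. The SEC62 to SEC63 ratio per length was 1.05 ± 0.0754 in wild-type and 1.03 ± 0.0623 in knockout piglets (SD, n = 4 each; exact permutation p = 0.714). Over the 5 genes of channel and partners the median log2 fold change was -0.26. The highest wild-type level per length was 64.9 ± 8.47 RPKM for SEC61A1 and the lowest 18.2 ± 3.66 RPKM for SEC61G (SD, n = 4 each).

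TRAP, the translocon-associated complex of SSR1 to SSR4, and TRAM1 sit beside the channel and assist the entry of chains with weak signals. All 5 genes had negative log2 fold changes, with a median of -0.12, and 2 were lower at an unadjusted p under 0.05. SSR1 (chromosome 7, 4662949 to 4685892, minus strand) was 117, 99.8, 99.5 and 94.9 CPM in the wild-type libraries and 86.9, 90.3, 91.4 and 93.4 CPM in the knockout libraries. Every knockout library lay below every wild-type library, the closest being piglets 21 and 23, and the log2 fold change was -0.18 ± 0.08 (edgeR adjusted p = 0.437). TRAM1 (chromosome 4, 64768372 to 64836126, plus strand) was 234, 179, 169 and 207 CPM in the wild-type libraries and 158, 174, 157 and 165 CPM in the knockout libraries, at -0.27 ± 0.11 on the log2 scale (SE, edgeR adjusted p = 0.419). Its wild-type values spread widely, from piglet 12 at 169 to piglet 5 at 234 CPM. SSR2, SSR3 and SSR4 had log2 fold changes of -0.05 ± 0.14, -0.12 ± 0.09 and -0.10 ± 0.14. In SSR2 and SSR4 the highest of all 8 libraries was knockout piglet 18, at 295 and 114 CPM. SSR4 had the highest wild-type level per length of all members, 129.5 ± 16.5 RPKM, and SSR3 the lowest of this group, 17.1 ± 1.49 RPKM (SD, n = 4 each).

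Signal peptidase cuts the signal sequence from the entering chain. Its catalytic subunit is either SEC11A or SEC11C, which sit with SPCS1, SPCS2 and SPCS3. Of these 5 genes, 4 had negative log2 fold changes, with a median of -0.13, and SPCS2 was lower at an unadjusted p under 0.05. SPCS2 (chromosome 9, 9280517 to 9308413, plus strand) was 158, 154, 137 and 161 CPM in the wild-type libraries and 133, 141, 117 and 129 CPM in the knockout libraries. Knockout piglets 6, 20 and 21 lay below every wild-type library, at -0.23 ± 0.08 on the log2 scale (SE, edgeR adjusted p = 0.409). SPCS3 had the opposite sign at 0.16 ± 0.12, with knockout values of 152 to 196 CPM and wild-type values of 128 to 181 CPM. SPCS1 had -0.10 ± 0.10, and 90.5% of its exon bases were shared with GLT8D1 and NEK4 on the opposite strand, so its reads are uncertain where strand was not used in counting. Its wild-type level per length, 75.4 ± 7.33 RPKM, was the highest of the group and that of SPCS2, 33.6 ± 2.37 RPKM, the lowest (SD, n = 4 each).

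The proportion of the alternative catalytic subunits overlapped between the groups. SEC11A was 65.5, 61.5, 51.5 and 57.5 CPM in the wild-type libraries and 52.7, 60.3, 48.5 and 53.7 CPM in the knockout libraries. SEC11C was 66.4, 69.8, 59.7 and 78.3 CPM in the wild-type libraries and 62.8, 58.5, 52.02 and 61.4 CPM in the knockout libraries. Both overlapped between the groups, with log2 fold changes of -0.13 ± 0.10 and -0.22 ± 0.10. The SEC11A to SEC11C ratio per length was 0.771, 0.689, 0.674 and 0.575 in wild-type and 0.656, 0.806, 0.730 and 0.684 in knockout piglets. Means were 0.677 ± 0.0807 and 0.719 ± 0.0655 (SD, n = 4 each; exact permutation p = 0.457), and SEC11C had the higher level per length in every library.

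The oligosaccharyltransferase had negative log2 fold changes in all 7 members, the median being -0.21, and 4 were lower at an unadjusted p under 0.05. OSTC and DAD1 are small membrane subunits, RPN1, RPN2 and DDOST form the shared core, and STT3A or STT3B is the catalytic subunit. DAD1 (chromosome 7, 76431964 to 76457890, plus strand) was 83.3, 86.9, 71.5 and 97.9 CPM in the wild-type libraries and 65.1, 66.8, 62.6 and 70.2 CPM in the knockout libraries. All knockout libraries lay below all wild-type libraries, the lowest of which was piglet 12, and the log2 fold change was -0.36 ± 0.10 (edgeR adjusted p = 0.353). OSTC, the subunit that links the STT3A form to the channel (chromosome 8, 113435925 to 113447208, minus strand), was 61.03, 62.6, 43 and 58.7 CPM in the wild-type libraries and 36.01, 52.7, 32.4 and 37.02 CPM in the knockout libraries. Its log2 difference of -0.51 ± 0.17 (SE, edgeR adjusted p = 0.405) was the largest of all members in size. The groups overlapped through wild-type piglet 12 and knockout piglet 18.

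RPN1 (chromosome 13, 71884282 to 71934746, plus strand) was 293, 306, 247 and 315 CPM in the wild-type libraries and 245, 259.6, 214 and 238 CPM in the knockout libraries. DDOST (chromosome 6, 78885268 to 78895853, minus strand) was 162, 156, 132 and 159.7 CPM in the wild-type libraries and 131, 144, 121 and 129.9 CPM in the knockout libraries. Piglets 12 and 18 overlapped in both, and the log2 fold changes were -0.28 ± 0.10 and -0.21 ± 0.09 (edgeR adjusted p = 0.407 and 0.426). Of DDOST's exon bases, 37.2% were shared with PINK1 on the opposite strand, which had a log2 fold change of 0.28 ± 0.10. RPN2 was 305 ± 20.9 CPM over the wild-type and 269.5 ± 22.4 CPM over the knockout libraries (SD, n = 4 each), with a log2 fold change of -0.18 ± 0.09.

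STT3A acts at the channel while the chain enters, and STT3B also glycosylates sites that STT3A has missed. STT3A was 162, 150.0, 132 and 142 CPM in the wild-type libraries and 124, 143, 133 and 122 CPM in the knockout libraries. STT3B was 356, 280.3, 320.5 and 282 CPM in the wild-type libraries and 297, 300.3, 284 and 292 CPM in the knockout libraries. Both overlapped between the groups, with log2 fold changes of -0.17 ± 0.09 and -0.08 ± 0.09. The STT3A to STT3B ratio per length was 0.495, 0.583, 0.450 and 0.549 in wild-type and 0.456, 0.519, 0.510 and 0.457 in knockout piglets. Means were 0.519 ± 0.0586 and 0.485 ± 0.0337 (SD, n = 4 each; exact permutation p = 0.400), so STT3B had the higher level per length in every library. For each of the 5 pairs the p adjusted over pairs was 0.714, and the smallest p this design allows is 0.0286. Within the complex the wild-type level per length ran from 105 ± 7.24 RPKM for RPN2 and 88.2 ± 7.95 for DDOST, through 68.3 ± 8.77 for DAD1 and 63.3 ± 7.39 for STT3B, to 32.6 ± 2.80 for STT3A (SD, n = 4 each). DAD1 and STT3B did not differ beyond their spread. Lengths are the merged exons of each gene in the deposited table, so a level per length depends on how complete that gene's annotation is.

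**Figure D4:**
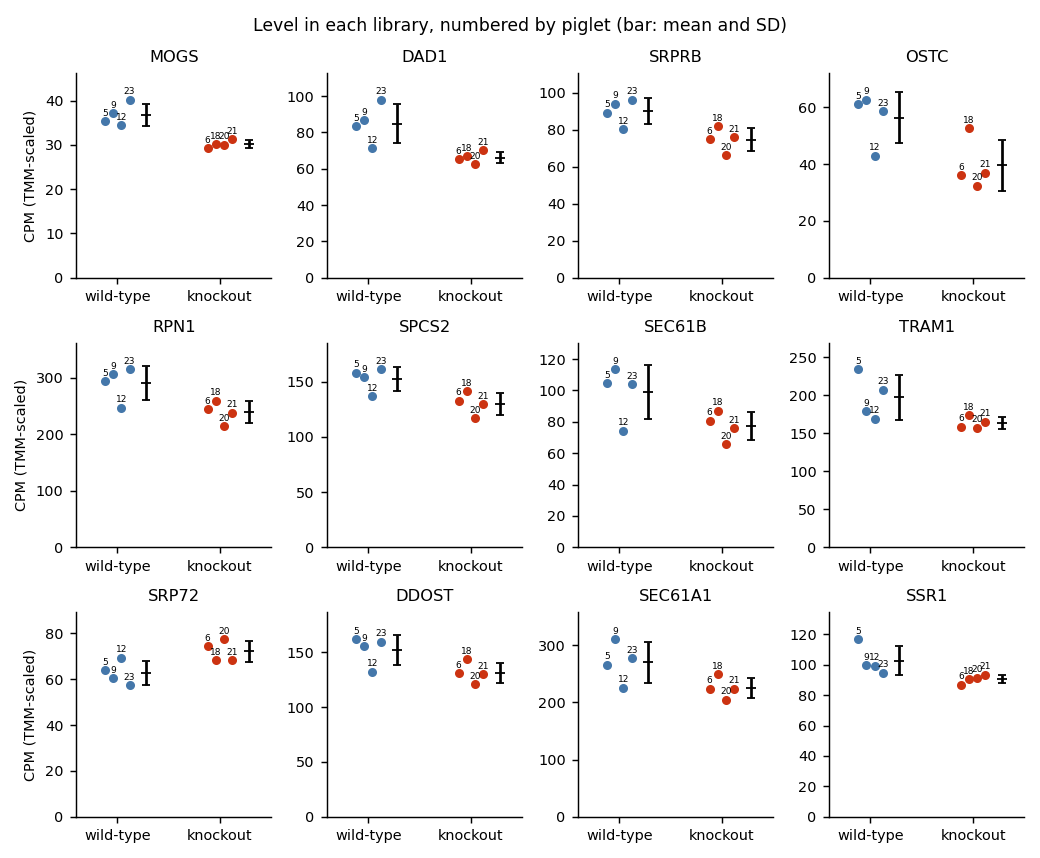
Level in CPM (y axis, from 0) of the 12 members with the smallest p, in wild-type (blue) and knockout (red) libraries numbered by piglet, with the mean and SD beside each group. Wild-type piglet 12 and knockout piglet 18 are the libraries through which most of these genes overlap; MOGS, DAD1 and SSR1 do not overlap.

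The enzymes that build the dolichol-linked glycan had small differences. DPAGT1 adds the first sugar to dolichol phosphate, ALG2 adds mannoses, and DPM1 and ALG5 make the dolichol-linked mannose and glucose donors. None of the 4 had an unadjusted p under 0.05, and the median log2 fold change was -0.05. Values were -0.05 ± 0.08 for DPAGT1, -0.05 ± 0.08 for DPM1, -0.10 ± 0.10 for ALG5, the lowest, and 0.08 ± 0.13 for ALG2, the highest. ALG2 was 26.1, 26.6, 26.6 and 20.9 CPM in the wild-type libraries and 30.8, 21.04, 26.5 and 27.3 CPM in the knockout libraries, with wild-type piglet 23 the lowest of all libraries and knockout piglet 18 next to it. The lowest wild-type level per length in the group was 12.5 ± 1.38 RPKM for ALG2 and the highest 20.3 ± 1.72 RPKM for ALG5 (SD, n = 4 each).

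MOGS, the glucosidase that removes the outermost glucose of the transferred glycan, had the smallest p of all members. MOGS (chromosome 3, 68578165 to 68584603, plus strand) was 35.4, 37.2, 34.4 and 40.2 CPM in the wild-type libraries and 29.2, 30.1, 30.1 and 31.3 CPM in the knockout libraries. All knockout libraries lay below all wild-type libraries, at -0.29 ± 0.08 on the log2 scale (edgeR adjusted p = 0.349). Its level per length was the lowest of all members, 6.42 ± 0.443 RPKM in wild-type piglets (SD, n = 4). Of its exon bases, 82.9% were shared with WBP1 and INO80B on the opposite strand, whose log2 fold changes were 0.09 ± 0.10 and 0.06 ± 0.10. The reads of MOGS and its level per length are thus uncertain where strand was not used in counting. GANAB, the catalytic subunit of the glucosidase that acts next, was 299, 315, 395 and 331 CPM in the wild-type libraries and 307, 364, 339 and 330.4 CPM in the knockout libraries, a log2 fold change of 0.0013 ± 0.11 whose sign varied with the scaling. GANAB had the highest level per length of this group, 84.3 ± 10.6 RPKM. UGGT1, the glucosyltransferase that senses unfolded chains, was 116, 111, 99.2 and 104 CPM in the wild-type libraries and 114, 119, 129 and 111 CPM in the knockout libraries, at 0.14 ± 0.08 on the log2 scale (SE, edgeR adjusted p = 0.510) with overlapping groups.

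Exons of 14 members overlapped another gene of the table, and the sources used here do not say whether strand was used in counting. Among the 23 members that shared no exon base, 18 had negative log2 fold changes with a median of -0.13, against 48.4% of all genes tested below 0. At an unadjusted p under 0.05, 8 (34.8%) were lower and 1 higher, against 5.8% and 5.4% of all genes tested. This subset was taken after the values were seen.

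Neighbouring steps of the pathway are given beside the 5.8% of all genes tested that were lower at an unadjusted p under 0.05, with no test between lists. Their lists, too, were chosen with earlier results of these data known. Other subunits of the oligosaccharyltransferase were negative in 4 of 5 tested, with a median of -0.19 and none at an unadjusted p under 0.05. MLEC, a lectin that binds the complex, was 234 ± 37.5 CPM over the wild-type and 194 ± 11.8 CPM over the knockout libraries (SD, n = 4 each; log2 fold change -0.27 ± 0.12), and KRTCAP2, TMEM258 and MAGT1 had -0.19 ± 0.10, -0.22 ± 0.14 and -0.14 ± 0.14. Of 25 other genes of dolichol-linked donor synthesis, 17 were negative (median -0.09), 2 were lower and 0 higher at that threshold. UAP1, which makes UDP-N-acetylglucosamine, was 129, 98.4, 112 and 118 CPM in the wild-type libraries and 84.03, 92.3, 93.3 and 86.1 CPM in the knockout libraries. All knockout values lay below the wild-type values, at -0.36 ± 0.09 on the log2 scale (SE, edgeR adjusted p = 0.334, DESeq2 adjusted p = 0.0345). GNPNAT1, an enzyme upstream of UAP1 in the same route, had -0.26 ± 0.11, the mannosyltransferase ALG3 -0.37 ± 0.17 and GFPT1, the entry enzyme of that route, -0.26 ± 0.12. Other routes of membrane insertion were negative in 14 of 27 genes (median -0.01), with 1 lower at that threshold, the channel-associated protein NCLN (-0.23 ± 0.09), and EMC7, MMGT1 and TMCO1 at 0.16 ± 0.07, 0.24 ± 0.12 and 0.18 ± 0.10. Genes of ER exit were negative in 14 of 23 (median -0.05), with 2 lower, PREB (-0.32 ± 0.09) and TFG (-0.25 ± 0.10), while SEC13 and SAR1B had -0.20 ± 0.11 and 0.27 ± 0.16.

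Of the 14 lumenal chaperones and partners that work behind the channel, none passed an edgeR adjusted p of 0.05 and 9 (64.3%) were lower at an unadjusted p under 0.05. All 14 estimates were negative, with a median of -0.53. The 5 that did not reach the unadjusted threshold were DNAJC3, DNAJC1, DNAJB9, SIL1 and DNAJC10, at -0.25 ± 0.12, -0.23 ± 0.17, -0.11 ± 0.09, -0.18 ± 0.19 and -0.09 ± 0.10. HYOU1, DNAJB11, CRELD2 and PDIA6 had -0.49 ± 0.08, -0.57 ± 0.11, -0.89 ± 0.21 and -0.59 ± 0.14, and DESeq2 called 7 of the 14 lower. The ratio of HSPA5, the chaperone BiP, to SEC61A1 in CPM was 2.20, 2.12, 2.09 and 2.91 in wild-type and 1.68, 1.83, 1.79 and 1.75 in knockout piglets. That ratio was lower in every knockout than in every wild-type library. The same held for CALR, calreticulin, to SEC61A1, at 2.08 ± 0.363 in wild-type and 1.40 ± 0.130 in knockout piglets (SD, n = 4 each). These ratios were chosen after their values were seen and are given without a test. In the list of glycan trimming and the lectin cycle, 16 of 20 genes were negative (median -0.06), with 4 lower and 1 higher at that threshold. CALR had -0.83 ± 0.17, PDIA3, its partner isomerase, -0.38 ± 0.13, the mannosidase MAN1A1 -0.54 ± 0.22 and EDEM3, which marks glycoproteins for degradation, 0.21 ± 0.08. Among sensors and transcription factors of the unfolded protein response, 5 of 10 were negative, with XBP1 at -0.34 ± 0.14, ATF6 at 0.27 ± 0.09, DDIT3, named by position, at 0.19 ± 0.15 and CREB3L1 at 0.47 ± 0.51.

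**Figure D5:**
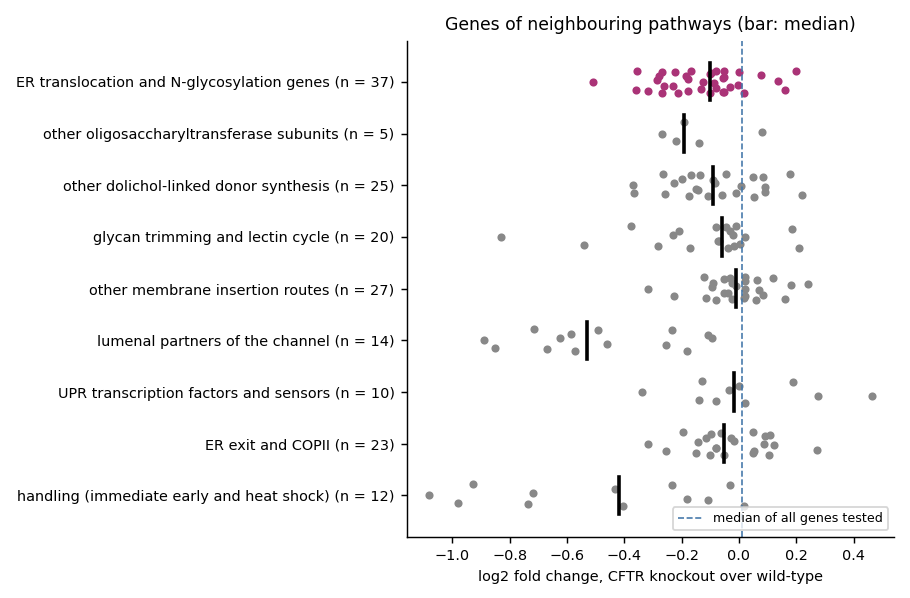
Log2 fold change, CFTR knockout over wild-type (x axis), of each tested gene in the 37-gene list (purple) and in lists of neighbouring pathways (grey), with a black bar at each median and a dashed line at the median of all genes tested. The list median is -0.10, that of the lumenal partners -0.53 and that of the immediate early and heat shock genes -0.42.

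Lists of other signals are given for the same libraries. The 12 matched immediate early and heat shock genes, which respond to handling of tissue, summed to 4062, 4892, 3924 and 5527 CPM in the wild-type libraries and 3184, 3418, 3156 and 3441 CPM in the knockout libraries. Every knockout sum lay below every wild-type sum, and wild-type piglet 12 was again the lowest wild-type library. HSPA8, the constitutive heat shock protein, averaged 1825 ± 430.0 CPM over the wild-type and 926 ± 151 CPM over the knockout libraries (SD, n = 4 each). Without it the sums of the other 11 genes overlapped, at 2514 to 3196 CPM in wild-type and 2273 to 2560 CPM in knockout piglets. In that list 11 of 12 genes were negative (median -0.42) and none passed an edgeR adjusted p of 0.05. Against 5.8% of all genes tested, 5 genes of the list were lower at an unadjusted p under 0.05. These were the immediate early gene FOS (-0.74 ± 0.29) and the heat shock genes HSPA8, HSPB1, HSPH1 and DNAJB1 at -0.98 ± 0.19, -0.93 ± 0.21, -0.72 ± 0.19 and -0.40 ± 0.15. DESeq2 called 3 of the 12 lower, HSPA8, HSPB1 and HSPH1, against 0.786% of all genes tested. Among the other immediate early genes, FOSB, at most 0.919 CPM in any library, had -1.08 ± 0.58 and EGR1 had -0.43 ± 0.41. JUN, JUNB, IER2 and ATF3 had -0.03 ± 0.11, 0.02 ± 0.30, -0.11 ± 0.09 and -0.24 ± 0.26.

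The marker lists that follow are given beside all genes tested, of which 5.4% were higher and 5.8% lower at an unadjusted p under 0.05. Markers of mature olfactory neurons were positive in 10 of 10 genes (median 0.29), 4 of them higher at that threshold and none by an edgeR adjusted p. Their sums overlapped, at 4753, 6775, 8249 and 7919 CPM in the wild-type libraries and 8697, 7560, 7825 and 9163 CPM in the knockout libraries. The sustentacular (support) cell list was negative in 3 of 4 tested genes (median -0.41). Of its 7 listed genes, CYP2G1, SEC14L3 and SULT1C1 were not matched and not analysed here. The keratins KRT8 (-0.43 ± 0.16) and KRT18 (-0.52 ± 0.21) were lower at an unadjusted p under 0.05, while ERMN and CYP1A2 had 0.54 ± 0.30 and -0.39 ± 0.40. Their sums were 1241, 1588, 1422 and 1635 CPM in the wild-type libraries and 1379, 992, 1140 and 1167 CPM in the knockout libraries, overlapping through wild-type piglet 5 and knockout piglet 6. Red blood cell markers were positive in 4 of 4 tested (median 1.05), HBB (1.16 ± 0.49) and ALAS2 (1.48 ± 0.63) at an unadjusted p under 0.05, with overlapping sums of 36.9 to 124 CPM in wild-type and 80.6 to 301 CPM in knockout piglets. Markers of Bowman gland and secretory cells were negative in 7 of 13 tested genes (median -0.05), with overlapping sums of 1895, 889, 496 and 929 CPM in the wild-type libraries and 659, 607, 818 and 740.0 CPM in the knockout libraries. In that list AGR2 (-0.855 ± 0.304) and TFF3 (-0.60 ± 0.20) were lower and LTF (1.27 ± 0.39) higher at an unadjusted p under 0.05. None passed by an edgeR adjusted p. The 9 markers of plasma cells, which are rich in this machinery, and of B cells summed to 24.8, 22.8, 22.03 and 24.3 CPM in the wild-type libraries and 19.3, 20.5, 20.1 and 20.8 CPM in the knockout libraries. That gap lay in DERL3, and without it the sums overlapped, at 14.71 to 17.07 CPM in wild-type and 15.4 to 16.3 CPM in knockout piglets. Of the 7 markers tested, 4 had negative log2 fold changes, DERL3 among them, with a median of -0.16. CD79A, TNFRSF17 and IRF4 had log2 fold changes of -0.26 ± 0.19, -0.23 ± 0.21 and -0.16 ± 0.71. JCHAIN, CD79B and MZB1 had 0.19 ± 0.18, 0.49 ± 0.37 and 0.01 ± 0.26. POU2AF1 and MS4A1 among the markers reached at most 0.0698 CPM in any library, and DERL3, a factor of ER-associated degradation, was 7.70, 7.91, 5.54 and 9.61 CPM in the wild-type libraries and 3.94, 4.57, 4.33 and 4.49 CPM in the knockout libraries. The part of these cell type signals was not tested either, and the sums without HSPA8 or DERL3 were chosen after the values were seen.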

How the data were processed

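RNA-seq libraries of newborn pig olfactory epithelium represented 4 wild-type animals and 4 with CFTR knocked out. Values were whole read counts as the authors deposited them, not normalized, and the table's layout is that of featureCounts per the file headers, with a merged exon length per gene. The submitters' processing notes name STAR 2.4.0 and Subread 1.5.0-p3, and without versions HTSeq, featureCounts, FastQC and DESeq2, but no role for any. Genome build and strand setting are not given in the sources used here. Labels number a separate piglet for each library, and p-values rest on that spread. Between 30836904 and 43253395 counts fell on 25880 pig genes, and 5988 other identifiers were left out. Identifiers were named through a table of gene names (14857) or by position in RefSeq genes of assembly Sscrofa11.1 where at least 50% of both spans overlapped (1642), used for names only.

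Counts were fitted over 17175 genes by edgeR 4.0.16 (R 4.3.3, quasi-likelihood test) with TMM scaling, the default filter, genotype as factor and Benjamini-Hochberg adjustment over all genes tested at 0.05. Standard errors follow from each gene's F value. RPKM is TMM-scaled CPM per kilobase of merged exons. Ratios of paired subunits were compared with two-sided exact permutation tests over libraries. The pipeline was tested on simulated data. Alternatives were other scalings and filters, DESeq2 1.42.0, limma 3.58.1 with quality weights, a covariate for Y-linked reads and the omission of libraries. The members and lists were chosen with earlier results of these data known. Genes named are the 12 members with the smallest p, paired subunits, the extremes of each functional group and up to 4 genes per further list. Others (among them HSPA5, further genes of the marker lists, RPN2, SEC61G, the remaining members and the genes sharing exons with a member) were named after their values were seen. No sequence is shown, as no sequence of these genes was in the sources used here.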

Additional observations from a re-analysis of the deposited data

Results flagged for a closer look

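In 2 of 74 groups of 4 libraries (37 genes in each genotype), a library stood apart from the other members of its group by the gap test of Dixon, which chance alone flags in about 1 in 20 groups. SRP9 reached 27.96 CPM in piglet 21, whereas the remaining knockout libraries held 26.6 to 26.7 CPM, a narrow range in a gene that varied little. ALG2 stood at 20.9 CPM in wild-type piglet 23, with 26.11 to 26.65 CPM in the remaining wild-type libraries.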

How the results depend on the processing

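No member passed an adjusted p of 0.05 in any of the 17 alternative fits, edgeR, DESeq2 and limma included, and 30 to 33 members had negative log2 fold changes in them. Without each library in turn, members lower at an unadjusted p under 0.05 numbered 4 to 16 (12 with all), their median log2 fold change was -0.19 to -0.074, and genes called over the whole table numbered 0 to 16 (1 with all, CFTR). DESeq2 called 219 genes over the whole table (84 higher, 135 lower), limma with quality weights 11 (3 higher, 8 lower) and edgeR 2 without wild-type piglet 5 and knockout piglet 18. CFTR had an adjusted p of 0.122 without knockout piglet 6 and 0.0544 without knockout piglet 20. The median of SRP and its receptor was -0.12 when libraries were scaled by their totals, a scaling that moved the median of all genes to -0.05. The median of the 3 glucosidase and glucosyltransferase genes was -0.10 without wild-type piglet 5 and knockout piglet 18, 0.091 with the Y-linked covariate and -0.058 to 0.084 without each library. Signs turned in members near 0. GANAB had -0.00010 with DESeq2 size factors and with DESeq2, -0.018 with upper-quartile scaling, -0.058 with library totals, -0.0093 with no filter, -0.10 without piglets 5 and 18 and -0.058 to 0.084 without each library. SRP68 had -0.00090 with upper-quartile scaling, -0.038 with library totals and -0.018 to 0.042 without each library. SEC63 had 0.013 with limma, 0.035 without piglets 5 and 18 and -0.034 to 0.043 without each library, and DPAGT1 had 0.013 with the Y-linked covariate. Without each library SEC62 ran from -0.075 to 0.0080, ALG2 from -0.0060 to 0.17 and SSR2 from -0.20 to 0.029. The log2 ratio of SRP9 to SRP14 (knockout minus wild-type) was 0.0058 without piglets 5 and 18 and -0.072 to 0.018 without each library, and that of SEC62 to SEC63 was -0.060 to 0.020. The causes were not tested. No paired analysis was possible because the labels give the groups no shared piglet number. Every member had at least 755 reads in each library, and precision rests on 4 piglets a group.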

Other observations

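Of the tested genes that share exons with a member, none passed an edgeR adjusted p of 0.05. At an unadjusted p under 0.05, RUVBL1 and IDH3G were lower and PINK1 and ASB5 higher. Of all genes tested, 5.8% were lower and 5.4% higher at that threshold. These genes were named after their values were seen. RUVBL1, a helicase that overlaps 6.34% of the exon bases of SEC61A1, averaged 92.95 ± 9.64 CPM over the wild-type and 70.97 ± 2.52 CPM over the knockout libraries (SD, n = 4 each). Its log2 fold change was -0.39 ± 0.09 (edgeR adjusted p = 0.326). PINK1, the mitochondrial kinase that overlaps DDOST, averaged 135 ± 15.1 CPM over the wild-type and 164 ± 15.7 CPM over the knockout libraries (SD, n = 4 each). Its sign was opposite to that of DDOST (edgeR adjusted p = 0.4095). IDH3G, which overlaps 33.2% of the exon bases of SSR4, had a log2 fold change of -0.21 ± 0.09.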
